A study of Mus musculus with 4 samples.

Results

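The checkpoint genes described here are *Topbp1* and 9 partners of the ATR–Chk1 pathway, *Atr*, *Atrip*, *Etaa1*, *Rad9a*, *Hus1*, *Rad1*, *Rad17*, *Clspn* and *Chek1*. They were chosen by name, and all 10 were found among the 40213 gene symbols of the count files. The data cover 4 RNA-seq libraries of CD24+ emergency progenitors (EPs; CD11c+CD117+ cells), 2 from WT and 2 from TopBP1cKO mice. WT mice were TopBP1 fl/fl littermates, which carry the floxed alleles without Cre, and TopBP1cKO mice were TopBP1 fl/fl with CD11c-cre. Young adult mice of both groups were given 10 μg of Flt3L-Ig by intraperitoneal injection at day 0 and again at day 3, and splenic EPs were sorted at day 9. Cre is driven by CD11c, so recombination is limited to cells that have used that promoter. The study's methods do not say which exons are floxed, nor whether a library is 1 mouse or a pool, so P values measure only the spread between these libraries. Total counts were 14561583 and 15193831 in WT replicates 1 and 2 and 15148032 and 15093476 in TopBP1cKO replicates 1 and 2.

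ATR is the kinase that responds to stretches of single-stranded DNA at stalled replication forks. It is brought there by its partner ATRIP and is switched on by either of 2 activators, TopBP1 or ETAA1. TopBP1 reaches the site through the RAD9–HUS1–RAD1 (9-1-1) clamp, a ring loaded onto DNA by RAD17 with small RFC subunits. Claspin then hands the effector kinase CHK1 to ATR, and active CHK1 holds back cell division and new origin firing. TopBP1 also acts in the start of replication together with Treslin, so dividing cells use it without any damage.

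The bases before the RefSeq start sites of *Topbp1* and of the pair of members with the highest log2 fold changes, *Chek1* and *Clspn*, are shown because the letters searched for in them are those found in many cell cycle promoters. Each sequence is the 250 bases upstream of the start in GRCm38.p6, read 5′ to 3′ on the strand of the gene, at chr9:103305077-103305326 (plus strand) for *Topbp1*, chr9:36726659-36726908 (minus strand) for *Chek1* and chr4:126556730-126556979 (plus strand) for *Clspn*. Capitals mark an E2F match in *Topbp1* and CCAAT matches in *Clspn*.
Topbp1: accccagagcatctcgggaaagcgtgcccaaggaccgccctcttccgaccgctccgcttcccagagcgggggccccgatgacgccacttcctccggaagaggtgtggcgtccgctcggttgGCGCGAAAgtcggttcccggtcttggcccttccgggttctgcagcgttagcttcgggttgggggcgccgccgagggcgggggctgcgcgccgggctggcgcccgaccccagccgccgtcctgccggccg
Chek1: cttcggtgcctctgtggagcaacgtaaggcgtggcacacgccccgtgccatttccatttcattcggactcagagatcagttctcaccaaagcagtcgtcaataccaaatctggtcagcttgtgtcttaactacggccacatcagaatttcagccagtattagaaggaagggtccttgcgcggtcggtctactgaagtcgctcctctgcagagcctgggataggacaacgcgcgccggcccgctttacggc
Clspn: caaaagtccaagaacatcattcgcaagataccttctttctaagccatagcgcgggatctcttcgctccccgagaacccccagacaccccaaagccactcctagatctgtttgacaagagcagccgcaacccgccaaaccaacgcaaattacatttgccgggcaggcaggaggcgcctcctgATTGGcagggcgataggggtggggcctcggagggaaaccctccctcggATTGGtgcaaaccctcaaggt
The E2F letters searched were TTTCCCGC, TTTCGCGC, TTTGCCGC and TTTGGCGC on both strands, and 1.86% of 32851 RefSeq promoters held one of them in the same 250 bases. Of the 9 members with an entry (all but *Rad9a*), *Topbp1* was the 1 with a match, TTTCGCGC on the opposite strand, from 129 to 122 bases upstream of the start. CCAAT, on either strand, was present in 33.8% of promoters and in those of *Atrip*, *Etaa1* and *Clspn*, where 2 matches lay 65 and 17 bases upstream of the start at their nearer ends. TTTGAA, the letters of the CHR element of mitotic genes, was present in 16.0% of promoters and in that of *Hus1*. No such letters were found in the *Chek1* window, which says nothing of the factors that act there.

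*Topbp1*, the floxed gene, was measured at 77.9 and 75.6 CPM (counts relative to the library total, scaled with TMM factors) in the WT libraries, at 50.7 CPM in TopBP1cKO replicate 1 and at 82.7 CPM in TopBP1cKO replicate 2. The first of the libraries labelled TopBP1cKO was thus below both WT libraries and the second above both, at 66.1% and 108% of the WT mean. The log2 fold change between genotypes was −0.20 (SE 0.21, edgeR FDR 0.774). It was −0.61 (SE 0.13, FDR 0.0104) without TopBP1cKO replicate 2 and 0.11 (SE 0.12, FDR 0.576) without TopBP1cKO replicate 1, with the lone library assumed to vary like the WT libraries. A gene sum covers every exon, so RNA of a recombined allele that lacks only the floxed exons would still be counted, and the label is not checked by this sum. Since *Topbp1* was not lower in the library labelled TopBP1cKO replicate 2, every direction below is for the libraries as labelled.

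TopBP1cKO replicate 2 stood apart from the other libraries in its cell cycle genes. The summed level of 20 S-phase genes was 491 and 495 CPM in the WT libraries, 756 CPM in TopBP1cKO replicate 1 and 1732 CPM in TopBP1cKO replicate 2. The sum of 20 G2/M genes was 690.1 and 640.2 CPM in the WT libraries, 836 CPM in TopBP1cKO replicate 1 and 2313 CPM in TopBP1cKO replicate 2. Both libraries labelled TopBP1cKO were above both WT libraries for all 20 S-phase and all 20 G2/M genes, beside 22.8% of all genes tested. In bulk libraries, a larger share of dividing cells and more of these RNAs per cell cannot be told apart. Genes of the sorted population were abundant throughout, with *Kit*, which encodes CD117, at 481 and 475 CPM in WT and 395 and 383 CPM in TopBP1cKO libraries, and *Itgax*, which encodes CD11c, at 620.1 and 614 CPM in WT and 689.9 and 649 CPM in TopBP1cKO libraries.

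Markers of other cells were present as well. The 13 neutrophil markers summed to 1489 and 1234 CPM in the WT libraries and to 3198 and 2445 CPM in TopBP1cKO replicates 1 and 2. In edgeR's quasi-likelihood test 10 of them were higher at an unadjusted P value below 0.05, beside 6.95% of all genes tested. With Benjamini–Hochberg adjustment 5 were higher at FDR < 0.05, beside 0.0807%. Of these markers 0 passed without WT replicate 2, and 4 were higher without WT replicate 1. Without TopBP1cKO replicate 1, where 20.5% of all genes tested were called, 10 were higher and 2 lower, *Mpo* (−1.39) and *Elane* (−1.26). Without TopBP1cKO replicate 2, where 1.74% of genes were called, 9 were higher, *Mpo* (0.77) and *Elane* (0.65) among them. *Mpo*, a gene of early granulocytes, had the highest sum over all libraries, at 598 and 423 CPM in WT and 874 and 195 CPM in TopBP1cKO libraries. In TopBP1cKO replicate 2 *Ngp* was highest, at 690 CPM. With all libraries the log2 fold changes of *Mpo* and *Elane* were 0.07 and -0.003. The 5 neutrophil markers that passed in edgeR's quasi-likelihood test were *Lcn2* (1.79), *Ltf* (1.69), *S100a8* (1.53), *Ngp* (1.48) and *S100a9* (1.48). No marker on the remaining lists passed FDR < 0.05 in that test with all libraries. Without TopBP1cKO replicate 1, 5 of the 10 genes listed for the sorted cells were lower (*Kit*, *Cd24a*, *Irf8*, *Batf3* and *H2-Aa*), 2 pDC markers (*Spib* and *Runx2*) and the B cell marker *Cd22* were higher and the pDC marker *Tcf4* was lower. Without TopBP1cKO replicate 2, the T cell marker *Lck* was higher and the macrophage marker *Hmox1* lower. The 10 genes listed for EPs and conventional dendritic cells, led by *H2-Aa*, summed to 12106 and 12386 CPM in WT and 11828 and 9362 CPM in TopBP1cKO libraries, 1 of them lower at an unadjusted P value below 0.05. The T cell markers (4 of 7 tested), led by *Cd5*, summed to 11.9 and 8.27 CPM in WT and 22.4 and 11.7 CPM in TopBP1cKO libraries, and the B cell markers (7 of 8 in the files, all tested), led by *Cd22*, to 73.7 and 68.1 CPM and to 82.2 and 85.9 CPM. Sums of the macrophage markers (6 of 8 tested), led by *Hmox1*, were 30.1 and 32.8 CPM in WT and 22.3 and 25.4 CPM in TopBP1cKO libraries. Those of the pDC markers (7 of 8 tested), led by *Tcf4*, were 247 and 249 CPM in WT and 226 and 229 CPM in TopBP1cKO libraries. At an unadjusted P value below 0.05, 2 pDC markers were higher, *Spib* and *Runx2* (log2 fold changes 0.81 and 0.39). At that threshold 2 were lower, *Tcf4* and *Bst2* (−0.33 and −0.29), so the sum of the pDC markers hides opposite differences. Of all genes tested, 6.95% were higher and 3.77% lower. At the same threshold 2 macrophage markers were lower, 1 T cell and 1 NK marker were higher, and no B cell or erythroid marker passed. The 5 NK markers, of which *Klrk1* made up nearly the whole sum, summed to 185 and 172 CPM and to 186 and 153 CPM, and erythroid markers (5 of 8 tested), led by *Hba-a1*, to 18.0 and 14.7 CPM and to 19.3 and 19.6 CPM. The part of these cells, and of the cell cycle genes, in the values of the checkpoint genes was not tested.

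Taken against its partners, *Topbp1* was lower in both of the libraries labelled TopBP1cKO. It held 33.3% (95% exact binomial interval 31.7 to 34.9) of the counts of the 10 members in WT replicate 1 and 34.3% (32.7 to 35.9) in WT replicate 2. The share was 23.0% (21.6 to 24.4) in TopBP1cKO replicate 1 and 25.8% (24.6 to 27.1) in TopBP1cKO replicate 2. These intervals assume independent reads, which reads of the same molecule are not, so they may be too narrow even for counting error. They do not cover the spread between libraries. Shares without *Chek1* and *Clspn* were 35.4% and 36.4% in WT and 25.3% and 31.8% in TopBP1cKO libraries. These 2 genes were left out after their values were seen. The 10 members summed to 234 and 220 CPM in WT and 221 and 320 CPM in TopBP1cKO replicates 1 and 2. The denominator was thus larger in TopBP1cKO replicate 2, where *Topbp1* itself was above WT. How many of all genes tested would be lower on this scale was not computed, so the lower share is a description. A share shows unequal change among the members and not which of them changed, and the smallest P value of an exact permutation test on 2 and 2 libraries is 0.333.

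**Figure D1:**
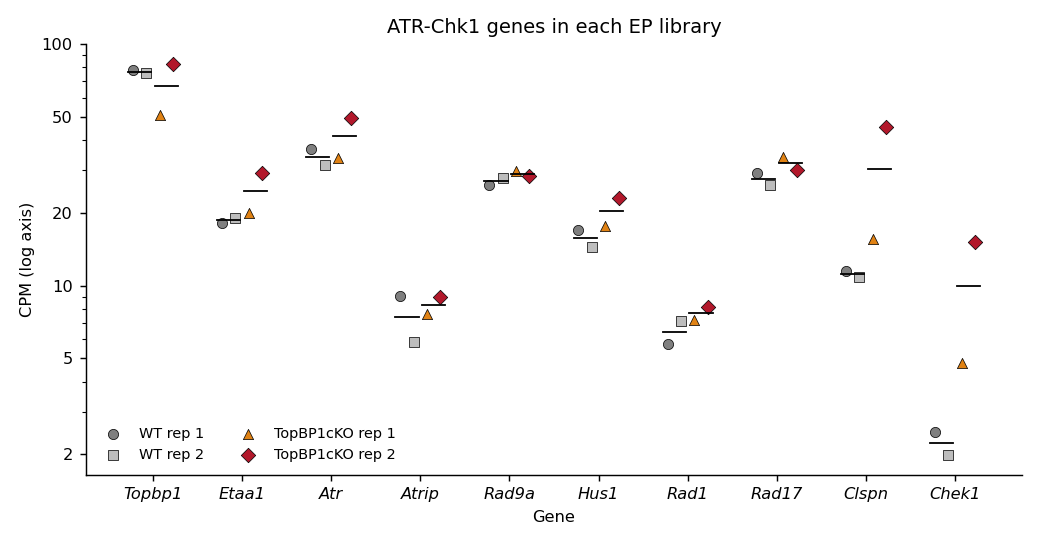
CPM (log axis) of the 10 members in each library, ordered by role, with circles and squares for WT, triangles and diamonds for TopBP1cKO libraries and a line at each group mean. *Topbp1* is at 50.7 and 82.7 CPM in the TopBP1cKO libraries, on either side of WT, whereas *Clspn* and *Chek1* are highest in TopBP1cKO replicate 2.

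Of the 10 members, 0 differed between genotypes at FDR < 0.05 in the quasi-likelihood test of edgeR, where 13 of 12393 genes tested (0.105%) did, 0.0807% higher and 0.0242% lower. With DESeq2 (Wald test) 1 member was called, *Chek1*, beside 1.11% of genes tested. The same member was called by edgeR's likelihood ratio test, beside 1.89%, and limma-voom called 0, beside 0.105%. Without TopBP1cKO replicate 1 the quasi-likelihood test called 5 members as higher, *Etaa1*, *Atr*, *Hus1*, *Clspn* and *Chek1* (20.5% of all genes tested were called in either direction). Without TopBP1cKO replicate 2 it called 1 as lower, *Topbp1* (1.74% of genes tested). At an unadjusted P value below 0.05, 2 members were higher and 0 lower in the libraries labelled TopBP1cKO, against 6.95% and 3.77% of all genes tested (10.7% in either direction). All 10 passed the filter on low counts. Their median log2 fold change was 0.27, beside 0.01 over all genes tested, and 9 were above 0, as were 51.2% of all genes. Both libraries labelled TopBP1cKO lay above both WT libraries for 7 members, all but *Topbp1*, *Atr* and *Atrip*, which is 70.0% beside 22.8% of genes tested. No member lay below in this way, beside 20.8% of genes tested.

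**Figure D2:**
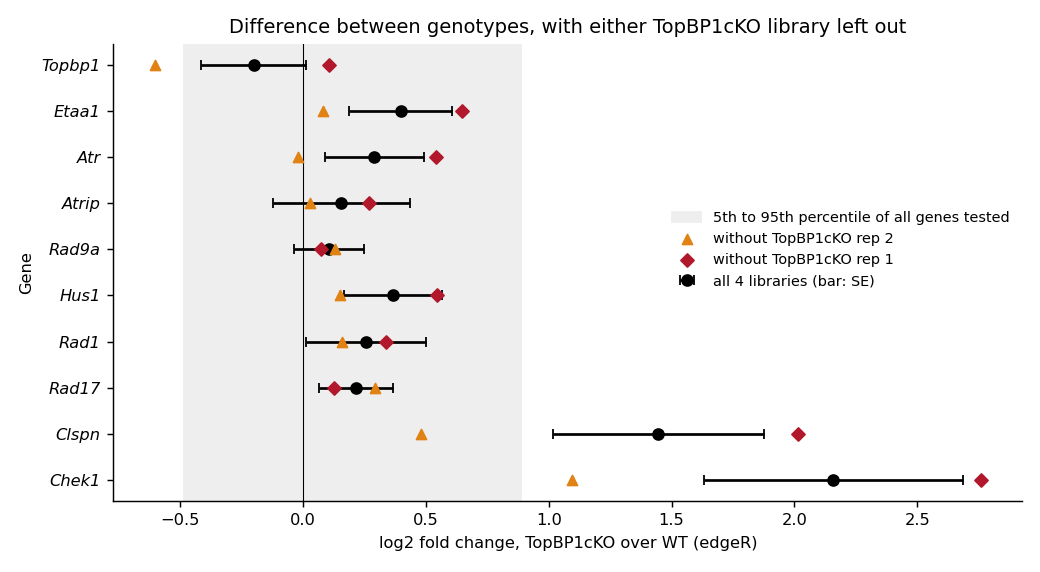
Log2 fold change of each member, TopBP1cKO over WT, from edgeR with all 4 libraries (black points, bars ± SE) and with either TopBP1cKO library left out (triangles and diamonds), over a grey band from the 5th to the 95th percentile of all genes tested. *Chek1* (2.16) and *Clspn* (1.45) lie to the right of the band, and the values of *Topbp1* without TopBP1cKO replicate 1 (0.11) and without TopBP1cKO replicate 2 (−0.61) lie on either side of 0.

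*Etaa1*, the other activator of ATR, was measured at 18.2 and 19.1 CPM in WT, 19.9 CPM in TopBP1cKO replicate 1 and 29.3 CPM in TopBP1cKO replicate 2. Its groups did not overlap, but TopBP1cKO replicate 1 was at 106% of the WT mean and only replicate 2, at 157%, was well above it. The log2 fold change of *Etaa1*, 0.40 (SE 0.21, FDR 0.552), came to 0.65 (FDR 0.00453) without TopBP1cKO replicate 1 and to 0.08 without TopBP1cKO replicate 2. In the GENCODE transcripts of GRCm38, 12.0% of the 31-base sequences of *Etaa1* also occur in *Gm11284*, so part of its counts is uncertain.

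*Atr*, the kinase, stood at 36.7 and 31.4 CPM in WT, 33.7 CPM in TopBP1cKO replicate 1 and 49.5 CPM in TopBP1cKO replicate 2. The groups overlapped, and the log2 fold change of 0.29 (SE 0.20, FDR 0.650) became −0.02 without TopBP1cKO replicate 2 and 0.54 (FDR 0.00871) without TopBP1cKO replicate 1. *Atrip*, its obligate partner, was at 9.04 and 5.82 CPM in WT and 7.61 and 8.92 CPM in TopBP1cKO libraries. Both TopBP1cKO libraries of *Atrip* lay between the WT libraries, and the log2 fold change, 0.16 (SE 0.28, FDR 0.882), turned to −0.14 without WT replicate 2. Exons of *Atrip* overlap those of *Trex1*, an exonuclease gene on the same strand, and 16.8% of the 31-base sequences of *Atrip* are found in another gene. *Trex1* had 2374 and 2522 counts in WT and 2317 and 1656 in TopBP1cKO libraries, against 128 and 88, and 116 and 138, for *Atrip*, so the counts of *Atrip* depend on how shared reads were assigned.

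The 3 clamp subunits and the loader had log2 fold changes from 0.11 to 0.37, none past FDR < 0.05. For each, both TopBP1cKO libraries lay above both WT libraries, as for 22.8% of all genes tested. The gaps were narrow for *Rad1* (7.22 against 7.15 CPM), *Rad9a* (28.4 against 27.9 CPM), *Hus1* (17.6 against 17.0 CPM) and *Rad17* (30.1 against 29.1 CPM). *Rad9a*, the clamp subunit that binds TopBP1, was at 26.1 and 27.9 CPM in WT and 29.7 and 28.4 CPM in TopBP1cKO libraries, the 2 TopBP1cKO libraries being closer in ratio than for the other 9 members. The value for *Rad9a* was 0.11 (SE 0.14, FDR 0.830). Its exons overlap those of *Ppp1ca* on the opposite strand, which matters if strand was not used in counting. *Hus1* was at 17.0 and 14.5 CPM in WT and 17.6 and 23.0 CPM in TopBP1cKO libraries, and its difference on the log2 scale, 0.37 (SE 0.20, FDR 0.563), became 0.55 (FDR 0.0231) without TopBP1cKO replicate 1 and 0.15 (FDR 0.829) without TopBP1cKO replicate 2. *Rad1*, the shallowest of the clamp genes, had 81 and 108 counts in WT and 110 and 126 in TopBP1cKO libraries (log2 fold change 0.25, SE 0.24, FDR 0.747). *Rad17*, the loader, was at 29.1 and 26.1 CPM in WT and 33.9 and 30.1 CPM in TopBP1cKO libraries, or 0.22 on the log2 scale (SE 0.15, FDR 0.650). Leaving out 1 library moved these values by over 1.5 times, with *Rad9a* at 0.06 and *Rad1* at 0.10 without WT replicate 1, *Rad1* at 0.41 and *Rad17* at 0.13 without WT replicate 2, and *Rad17* at 0.13 without TopBP1cKO replicate 1. *Rad1* was at 0.16 without TopBP1cKO replicate 2, and *Rad9a* at 0.07 without TopBP1cKO replicate 1. *Rad17* and *Rad9a* were the 2 members with a higher level in TopBP1cKO replicate 1 than in replicate 2.

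*Clspn* and *Chek1*, the adaptor and the effector kinase, had the highest log2 fold changes of the 10. *Clspn* had 162 and 164 counts in the WT libraries, 238 in TopBP1cKO replicate 1 and 698 in TopBP1cKO replicate 2, or 140.1% and 405% of the WT mean in CPM. The log2 fold change of *Clspn*, 1.45 (SE 0.43, FDR 0.346), was above that of 98.6% of genes tested. *Chek1* had 35 and 30 counts in the WT libraries, 73 in TopBP1cKO replicate 1 and 234 in TopBP1cKO replicate 2, or 215% and 679% of the WT mean in CPM. The log2 fold change of *Chek1*, 2.16 (SE 0.53, FDR 0.307), was above that of 99.8% of genes tested. Its FDR was 0.0108 with DESeq2 (Wald test), 0.0128 with edgeR's likelihood ratio test and 0.458 with limma-voom. Both libraries labelled TopBP1cKO were above both WT libraries for both genes, and most of the size came from TopBP1cKO replicate 2. Without it, the log2 fold changes were 0.48 for *Clspn* (FDR 0.245) and 1.09 for *Chek1* (FDR 0.185). Without TopBP1cKO replicate 1 they were 2.02 (FDR 2.14e-08) and 2.76 (FDR 3.25e-07).

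The S-phase genes, described as a reference for dividing cells, were higher in the same libraries. All 20 had an unadjusted P value below 0.05, as did 10.7% of all genes tested. Of the 20, the number at FDR < 0.05 was 0 in the quasi-likelihood test of edgeR and in limma-voom. It was 7 with DESeq2 (1.11% of genes tested) and 14 with edgeR's likelihood ratio test (1.89%). Their median log2 fold change was 1.51, with 0.62 without TopBP1cKO replicate 2 and 2.02 without TopBP1cKO replicate 1. The corresponding values of the 20 G2/M genes were 1.27, 0.37 and 1.79, and again all 20 had an unadjusted P value below 0.05, with 0 at FDR < 0.05 in the quasi-likelihood test and limma-voom, 7 with DESeq2 and 4 with the likelihood ratio test. Every gene of both lists had a positive log2 fold change with either TopBP1cKO library left out. *Mcm7* and *Mcm5*, subunits of the replicative helicase, had log2 fold changes of 1.32 (SE 0.29, FDR 0.307) and 1.54 (SE 0.34, FDR 0.307). *Bub1*, a mitotic checkpoint kinase, had one of 1.68 (SE 0.40, FDR 0.307). *Mcm7*, *Mcm5* and *Bub1* were at 0.73, 0.82 and 0.86 without TopBP1cKO replicate 2. The S-phase genes stood between 127% and 200.4% of the WT mean in TopBP1cKO replicate 1 and between 236% and 620% in TopBP1cKO replicate 2. *Clspn* lay within these ranges, *Chek1* above the highest gene in both libraries, and the other 8 members below the lowest gene in both.

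**Figure D3:**
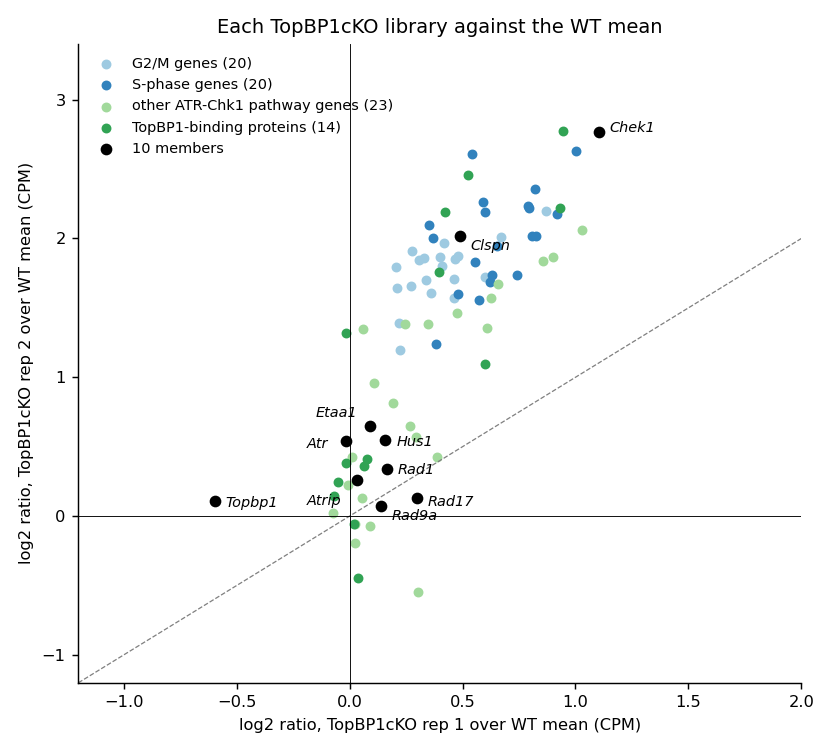
Log2 ratio to the WT mean in CPM of each gene in TopBP1cKO replicate 1 (x axis) and TopBP1cKO replicate 2 (y axis), with the 10 members in black, cell cycle genes in blue, other pathway genes and TopBP1-binding proteins in green and a dashed line where both libraries are equal. The S-phase genes have medians of 0.63 and 2.02 in the 2 libraries, with *Clspn* among them and *Chek1* above, and *Topbp1* is the one member far to the left of 0 on the x axis.

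The members were also set against the S-phase genes within each library. *Topbp1* had 159 and 153 counts per 1000 counts of the S-phase list in WT and 67.1 and 47.8 in TopBP1cKO libraries. *Atr* had 74.9 and 63.4 in WT and 44.6 and 28.6 in TopBP1cKO libraries. On this scale 8 members were lower in both TopBP1cKO libraries than in both WT libraries, all but *Chek1* and *Clspn*, but so were 88.5% of all genes tested, because the denominator was larger, and this count is no result about the members. *Chek1* had 5.04 and 4.01 in WT and 6.34 and 8.74 in TopBP1cKO libraries, both above WT, as for 0.533% of genes tested, and *Clspn* had 23.3 and 21.9 in WT and 20.7 and 26.1 in TopBP1cKO libraries. The log2 ratio of the group means was lowest for *Topbp1*, at −1.44, and ran from −0.99 to −0.81 for the other 7 lower members, beside a median of −1.09 over all genes tested. The S-phase list was written with earlier results of these libraries known, so these ratios are a description.

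Other genes of the pathway lay mostly on the higher side. Of 24 fixed genes, 23 were tested. At an unadjusted P value below 0.05, 12 of them had a higher level and 0 a lower one, against 6.95% and 3.77% of all genes tested. None of the 23 had an FDR below 0.05 in the quasi-likelihood test of edgeR or in limma-voom. With DESeq2 3 did (1.11% of genes tested) and with edgeR's likelihood ratio test 4 (1.89%). The median log2 fold change was 0.54, with values from −0.08 to 1.64. This median was 0.26 without TopBP1cKO replicate 2 and 0.82 without TopBP1cKO replicate 1. *Tipin*, which with Timeless holds Claspin at the fork, had 160 and 211 counts in WT and 348 and 697 in TopBP1cKO libraries (log2 fold change 1.43, SE 0.31, FDR 0.307). *Tipin* was at 0.84 without TopBP1cKO replicate 2. *Rfc4*, a small RFC subunit that works with RAD17, had 55 counts in each WT library and 117 and 243 in TopBP1cKO libraries (log2 fold change 1.64, SE 0.36, FDR 0.307). The value for *Rfc4* was 1.02 without TopBP1cKO replicate 2. *Rpa2*, a subunit of the complex that coats single-stranded DNA, and *Pkmyt1*, a kinase that inhibits CDK1, had log2 fold changes of 1.03 (SE 0.26, FDR 0.307) and 1.25 (SE 0.32, FDR 0.307), and of 0.60 and 0.65 without TopBP1cKO replicate 2. *Hus1b*, the germ cell relative of *Hus1*, did not pass the filter, with 0 and 4 counts in WT and 2 and 6 in TopBP1cKO libraries.

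Genes of proteins reported to bind TopBP1 come next. Among them is *Zbtb17*, which encodes Miz-1, although the study's co-immunoprecipitation detected no binding of Miz-1 to TopBP1 in WT CD24+ EPs. Of 14 genes tested, 6 were higher at an unadjusted P value below 0.05 and 0 were lower, against 6.95% and 3.77% of all genes tested. None of the 14 had an FDR below 0.05 in the quasi-likelihood test of edgeR or in limma-voom. With DESeq2 1 did (1.11% of genes tested) and with edgeR's likelihood ratio test 3 (1.89%). The median log2 fold change of the 14 was 0.53, with 12 above 0 and 2 below. This median was 0.06 without TopBP1cKO replicate 2 and 0.75 without TopBP1cKO replicate 1. *Zbtb17* was at −0.18 with all libraries, −0.45 without TopBP1cKO replicate 1 and 0.03 without TopBP1cKO replicate 2. *Ticrr*, which encodes Treslin, had 71 and 47 counts in WT and 119 and 429 in TopBP1cKO libraries (log2 fold change 2.13, SE 0.56, FDR 0.307). *Blm*, a helicase gene, had 72 and 70 counts in WT and 141 and 349 in TopBP1cKO libraries (log2 fold change 1.71, SE 0.40, FDR 0.307). *E2f1*, a transcription factor of the G1 to S transition, had 189 and 204 counts in WT and 310 and 444 in TopBP1cKO libraries, a log2 fold change of 0.87 (SE 0.21, FDR 0.307). Without TopBP1cKO replicate 2, *E2f1* was at 0.59, *Blm* at 0.92 and *Ticrr* at 0.94.

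In the parallel branch of ATM, CHK2 and DNA-PK, 1 of 10 genes tested was higher at an unadjusted P value below 0.05 and 0 were lower, near the 6.95% and 3.77% of all genes. With all 4 libraries, 0 had an FDR below 0.05 in either edgeR test, DESeq2 or limma-voom. The higher gene was *H2ax*, the histone variant phosphorylated at breaks, with 620 and 780 counts in WT and 855 and 1139 in TopBP1cKO libraries (log2 fold change 0.44, SE 0.17, FDR 0.417). *H2ax* was at 0.23 without TopBP1cKO replicate 2. The median log2 fold change of the 10 was 0.35, beside 0.27 for the ATR–Chk1 members. It was 0.10 without TopBP1cKO replicate 2 and 0.55 without TopBP1cKO replicate 1, beside 0.14 and 0.44 for the ATR–Chk1 members. The other pathway genes (0.82) and the genes of TopBP1-binding proteins (0.75) also had higher medians than the members without TopBP1cKO replicate 1. The higher values in that setting were thus not particular to the members.

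Levels can be set side by side only per length, here as CPM per kb of the curated coding transcript with the most counts among those matched to GENCODE. In WT EPs *Topbp1* was highest, at 14.9 and 14.5 CPM per kb over 5224 bases, followed by *Rad9a* (12.5 and 13.4) and *Rad17* (12.2 and 10.9). These 3 did not overlap one another and stood above the other 7. *Etaa1*, *Rad1* and *Atr* followed at means of 4.46, 4.25 and 4.21 CPM per kb, and neighbours among them overlapped. *Hus1* was at 3.67 and 3.12 CPM per kb, *Atrip* at 3.52 and 2.26 and *Clspn* at 2.28 and 2.16, with overlap between *Hus1* and *Atrip* and between *Atrip* and *Clspn*. *Chek1* was lowest, at 0.728 and 0.584 CPM per kb. In TopBP1cKO replicate 2, *Chek1* reached 4.45 and *Clspn* 8.98 CPM per kb, which placed *Clspn* above *Etaa1* and *Atr* in that library. The length used for *Clspn*, 5027 bases, is that of NM_175554.5. This transcript had 20 counts in TopBP1cKO replicate 1 and 0 in each other library, so the place of *Clspn* per kb is uncertain.

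**Figure D4:**
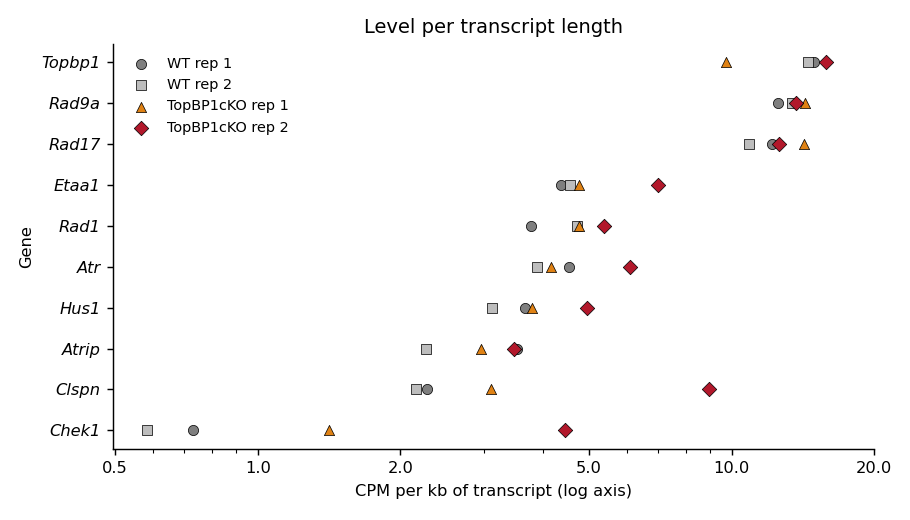
CPM per kb of transcript (log axis) of each member in each library, ordered by the WT mean, with circles and squares for WT and triangles and diamonds for TopBP1cKO libraries. *Topbp1*, *Rad9a* and *Rad17* lie between 9.71 and 15.8 CPM per kb in every library, and *Chek1* runs from 0.584 to 4.45.

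Counts on single transcripts varied more than the gene sums. The files list 42 transcripts of the 10 members, of which 36 had a count in at least 1 library. For 4 members, *Atr*, *Chek1*, *Hus1* and *Clspn*, the transcript with the most counts was not the same in all libraries. The 2 WT libraries of *Clspn* held their counts on different transcripts, all 162 on NM_001405798.1 in replicate 1 and all 164 on NM_001405800.1 in replicate 2. In TopBP1cKO replicate 1, 202 of the 238 counts were on XM_011240541.4. Transcripts of *Atr* listed as noncoding held from 31.1% to 51.2% of its counts, and its curated coding transcript had 0 counts in TopBP1cKO replicate 1 and 474 in TopBP1cKO replicate 2. By contrast, *Topbp1* had most of its counts on NM_176979.5 in every library, with 906 and 1041 in WT and 595 and 1110 in TopBP1cKO libraries. When each transcript was tested by itself, 0 of 26 member transcripts and 0 of all 29581 had an FDR below 0.05 in edgeR's quasi-likelihood test. At an unadjusted P value below 0.05 these numbers were 1 and 2018. The 1 was XM_011240541.4 of *Clspn*, with 0 counts in both WT libraries and 202 and 228 in TopBP1cKO libraries. It passed the filter only through the TopBP1cKO libraries, and the WT counts of *Clspn* were all on other transcripts, so its P value cannot tell a change from another assignment of reads. No transcript of *Topbp1* was counted in both WT libraries and at 0 in both TopBP1cKO libraries.

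**Figure D5:**
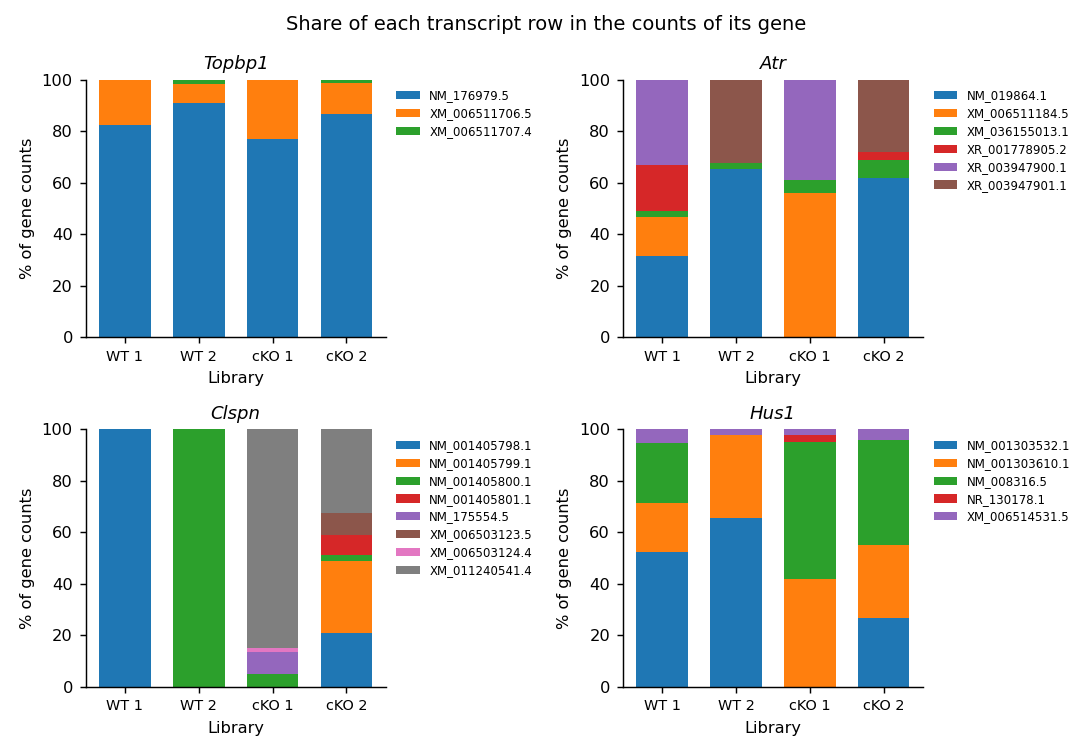
Share in percent of each transcript in the counts of its gene, as stacked bars for the 4 libraries, for *Topbp1*, *Atr*, *Clspn* and *Hus1*. NM_176979.5 holds most of *Topbp1* in all 4 libraries, whereas the 2 WT libraries of *Clspn* share no transcript.

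The genes whose pattern was closest to that of *Topbp1* were *Zfp873*, *Fkbp5*, *Zbed3*, *Rsad2* and *LOC115488470*. Likeness was the Euclidean distance between log2 CPM values centred on their mean over 4 libraries, among 9231 other genes with a mean of at least 100 counts, and it ran from 0.03 to 0.12 for the 5. Like *Topbp1*, *Zfp873* was lowest in TopBP1cKO replicate 1 (100 counts) and highest in TopBP1cKO replicate 2 (168 counts), with 141 and 148 counts in WT. None of the 5 is on the lists of pathway or cell cycle genes, and with 4 libraries, 147 genes had a Pearson correlation of at least 0.95 with *Topbp1*.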

How the data were processed

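RNA of sorted CD24+ EPs was made into libraries with the CORALL RNA-seq V2 kit, per the labels. The authors deposited whole-number counts per transcript, named by RefSeq accession and symbol, without normalization. The submitters' processing notes name fastp, STAR, Salmon and GATK and the build GRCm39, without role or version. If Salmon made the table, the counts are rounded estimates, and the rule for shared reads is not given in the sources used here.

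Counts were summed per symbol, and 12393 genes that passed filterByExpr were tested with TMM normalization by edgeR 4.0.16 (glmQLFit, glmQLFTest; R 4.3.3), with Benjamini–Hochberg adjustment. SEs were derived from the fold changes and F statistics. DESeq2 1.42.0 and limma 3.58.1 served as alternatives, as did other normalizations and filters, thinning to the smallest total (seed 11), a replicate block, single transcripts and leaving out each library. The code was tested on simulated data. The biological coefficient of variation was 15.2%. No pair of libraries was a duplicate (chi-square per degree of freedom at least 11.9 over genes with at least 20 counts).

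Lengths, exon overlaps and shared 31-base sequences came from GENCODE vM21 (GRCm38), and promoters from RefSeq (GRCm38.p6), of which the 50 bases after the start were left out. The members, gene lists and markers were chosen with earlier results of these data known. Named were the 10 members, up to 4 genes per pathway list with the smallest P values or with 0 counts, marker genes, and the 5 genes nearest to *Topbp1*. *Trex1*, *Ppp1ca* and *Gm11284* were named for overlap, and *Xrcc5* and *Zbtb17* after their values were seen. One marker gene is not reported here.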

Additional observations from a re-analysis of the deposited data

How the results depend on the processing

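The 10 log2 fold changes kept their direction under all 10 settings that left out no library, and 96 of those 100 values stayed on their side of FDR < 0.05. The exceptions were *Chek1* in DESeq2, under edgeR's likelihood ratio test and with the replicate block, and *Clspn* with the block. The number of genes at FDR < 0.05, 13 in the quasi-likelihood test, came to 137 in DESeq2 (Wald test) and 234 under the likelihood ratio test. The number of members, 0, was 1 with each of these. With a library left out, it ran from 1 to 2625 genes and from 0 to 5 members, and members at an unadjusted P value below 0.05, 2 otherwise, from 2 to 5. Without TopBP1cKO replicate 1, 20.5% of genes tested were called, and without TopBP1cKO replicate 2, 1.74% (223 genes). Without WT replicate 2, 1 gene was called, and without WT replicate 1, 12 genes. The median of the 10 members ran from 0.14 to 0.44, *Topbp1* from -0.61 to 0.11, *Atr* from -0.022 to 0.54 and *Atrip* from -0.14 to 0.50. The cause was not tested.

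Libraries with the same replicate number did not deviate together (correlation of their deviations over genes, which are not independent, -0.0147). With 2 libraries in each group this value cannot exclude pairing, and the labels do not say whether the numbers pair the libraries. With the replicate block, 504 genes and 2 members passed FDR < 0.05, as did 9 other pathway genes, 6 genes of TopBP1-binding proteins and all 20 genes of each cell cycle list. Depth limits *Chek1* most, at 30 to 35 counts in a WT library.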

Other observations

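*Xrcc5* and *Xrcc6* encode the 2 subunits of Ku, which binds broken DNA ends as a dimer. *Xrcc6* had 331 and 373 counts in WT and 427 and 526 in TopBP1cKO libraries. For *Xrcc5* these were 8 and 2 counts in WT and 18 and 11 in TopBP1cKO, all on 1 of its 5 listed transcripts. *Prkdc*, the kinase that Ku recruits, was at 520 and 484 counts in WT and 584 and 813 in TopBP1cKO libraries. *Xrcc5* was singled out after its values were seen.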
